A study of Mus musculus with 38 samples.

Results

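The genes described here make up the glutamatergic synapse: the vesicular and uptake transporters of glutamate, its AMPA, NMDA, kainate and metabotropic receptors, the scaffolds that hold those receptors in place, and the enzymes Glul, Gls2, Plcb1 and Adcy1. They come from a list of 37 gene symbols. Each gene was represented by a probe set (the group of array probes read as 1 transcript) that carries its symbol alone, and by the one with the highest mean over all arrays where there were several. 35 of the 37 genes, of 19937 named genes on the array, had such a probe set, and 32 of the 35 had exactly 1. Gls2 and Grin1 had none annotated to them alone and therefore have no value.

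Glutamate is the main excitatory transmitter of the brain. Vesicular transporters load it into synaptic vesicles, AMPA and kainate receptors carry fast current, NMDA receptors admit calcium, and metabotropic receptors signal through G proteins. Uptake transporters on astrocytes and neurons clear it, and glutamine synthetase (Glul) recycles it in astrocytes. Slc17a6 encodes VGLUT2, the vesicular transporter of most hypothalamic and thalamic glutamate neurons, whereas Slc17a7 encodes VGLUT1, best known from cortex and hippocampus.

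RNA of the dissected hypothalamus was measured in 38 female FVB/N mice, each on its own Affymetrix Mouse Gene ST array, in 7 groups. The 18Q group (n = 5) and the 79Q group (n = 8) were wild-type mice that received AAV-HTT853-18Q or AAV-HTT853-79Q, a serotype 5 adeno-associated virus (AAV) that expresses an 853 amino acid N-terminal fragment of huntingtin (HTT) with 18 or 79 CAG repeats from the human neuronal Synapsin-1 promoter. Injections into both sides of the hypothalamus were made at 8 weeks, and the mice were killed 4 weeks later, at 12 weeks of age, together with uninjected wild-type controls (WT control, n = 5). No group received a vector without HTT, so injection and fragment cannot be told apart in comparisons with WT. BACHD mice, in which full-length human HTT with 97 CAG repeats is expressed ubiquitously from a transgene, were compared with WT littermates at 2 months (n = 6 and n = 6) and at 10 months of age (n = 5 and n = 3). Because whole tissue was measured, fewer cells of a type and less RNA per cell cannot be told apart.

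The values are log2 intensities after Robust Multi-Array Averaging (RMA). The AAV arrays, the 2 months arrays and the 10 months arrays had been normalized in 3 separate runs, so levels are compared only within each of these sets, and the level of 1 gene is not set against that of another. The medians of the arrays lay between 7.16 and 7.46, and correlations between arrays of a set were 0.985 or higher. The number of arrays limits the precision: the 95% interval of a member reached, at the median, 0.127 log2 units to either side in 18Q vs. WT and 0.114 in the comparison of 79Q with WT, and 0.182 and 0.148 in BACHD mice of 2 and 10 months. Markers of the hypothalamus were present in every array, with a mean over 11 genes of 9.31 to 10.28. A list of 9 thalamus markers ranged from 8.09 to 10.13 among the 2 months arrays, in both genotypes, and WT 2 months replicate 4 stood apart in the choroid plexus list, with a mean of 10.28 against at most 8.09 in any other array. The mean of 7 pituitary markers ranged from 6.81 to 9.99 in WT and from 6.61 to 8.92 in BACHD mice of 2 months. It was highest in WT replicate 5 and in BACHD replicate 4.

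The first question was whether either HTT fragment was accompanied by altered RNA levels of these genes. In the injected mice most members lay slightly lower than in uninjected WT mice, but no member passed an adjusted p of 0.05 (limma, Benjamini-Hochberg over 34760 probe sets) for either fragment. The 2.11% (18Q) and 2.07% (79Q) of all probe sets that passed in those comparisons are the background. In 18Q vs. WT, 31 of 35 log2 differences were below zero and 4 above, with a median of -0.054 against -0.011 over all probe sets. In 79Q vs. WT, 26 were below zero and 9 above, with a median of -0.068 against -0.016. Of all probe sets 55.0% were below zero in 18Q vs. WT and 57.8% in 79Q vs. WT. Among the brighter probe sets, those at or above the median mean, these shares were 58.6% and 60.8%, and the medians were -0.018 and -0.021. Centring each array on its median gave 31 and 29 members below zero, but it also lowered the medians over all probe sets to -0.043 and -0.037. Without the 4 injected arrays whose thalamus marker list exceeded that of every WT control (replicates 3 of 18Q and 6, 7 and 8 of 79Q), the medians of the members were -0.057 and -0.036, against -0.018 and -0.009 over all probe sets.

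At an unadjusted p under 0.05, 2 members were lower and none higher in 18Q vs. WT, where 6.5% of all probe sets were lower and 6.15% higher. In 79Q vs. WT, 8 members were lower and 1 higher, against 8.31% lower and 5.65% higher among all probe sets and 12.3% lower among the brighter ones. The 8 were the uptake transporters Slc1a1 and Slc1a3, the receptor subunits Gria4, Grin2b, Grin2c, Grin3a and Grik1, and the scaffold Dlg4. The single higher one was the scaffold Homer3. Without the 4 arrays with high thalamus markers the 9 became 4, namely Grin2b, Grin2c, Slc1a3 and Shank3, all lower, while the share of all probe sets that were lower went from 8.31% to 5.24%. The 2 comparisons share their 5 WT control arrays, so their values stand side by side below and are not counted as independent.

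**Figure D1:**
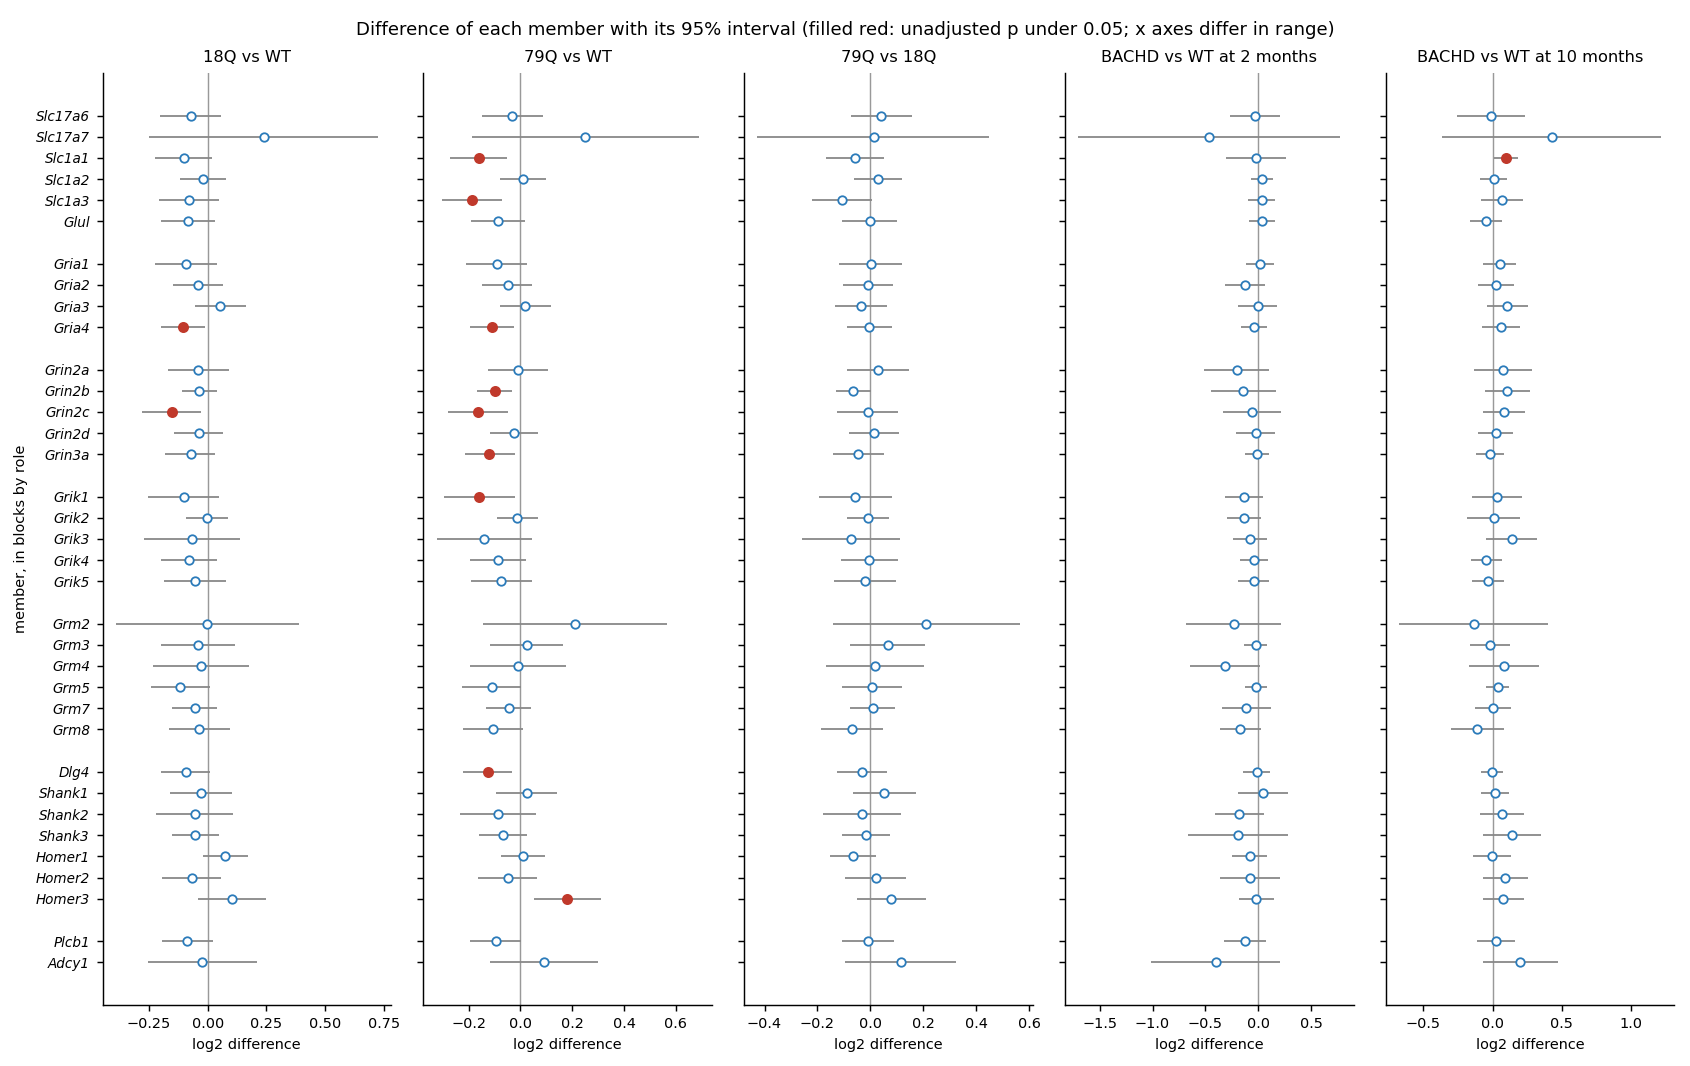
Log2 difference of each of the 35 members (rows, in blocks by role) in 5 comparisons (panels), with the 95% interval of the limma fit as a line. Filled red points have an unadjusted p under 0.05: 2 in 18Q vs. WT, 9 of 35 for 79Q against WT, none between the fragments or at 2 months, and 1 at 10 months. The x axes differ in range, and Slc17a7 has the widest interval in every panel.

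Markers of other cells moved in the same arrays. All 7 microglia markers were above zero with either fragment, and 5 passed an adjusted p of 0.05 in each comparison with WT control arrays. Cd68 among them rose by 0.937 in 18Q and 0.939 in 79Q (limma, adjusted p = 0.000921 and 0.000377). The mean of the list was 8.56 to 9.02 in 18Q and 8.48 to 9.16 in 79Q against 8.13 to 8.27 in WT control arrays. Of 8 neuron markers, 8 were below zero in 18Q vs. WT (median -0.086) and 7 in 79Q vs. WT (median -0.072). Eno2 fell by 0.144 in 18Q vs. WT (limma, adjusted p = 0.0315), and no neuron marker passed in 79Q vs. WT. The neuron list lay at 11.93 to 12.00 in 18Q and 11.96 to 12.06 in 79Q against 12.04 to 12.12 in WT control arrays. All 3 measured markers of GABA neurons were below zero with either fragment, with medians of -0.083 in 18Q and -0.214 in 79Q. Gad1 fell by 0.214 in 79Q vs. WT (limma, adjusted p = 0.0275), and the list was 10.70 to 10.94 in 79Q against 10.96 to 11.17. Among 8 astrocyte markers, Gfap and Aqp4 rose in 18Q vs. WT by 0.769 and 0.517 (adjusted p = 0.00494 and 0.0265). In 79Q vs. WT 5 of the 8 were above zero, 3 of them at an unadjusted p under 0.05, but none of these passed. There Gfap had a mean of 10.498 against 10.042 in WT control arrays, and Aqp4 10.417 against 10.078. Gjb6 fell by 0.250 in 79Q (adjusted p = 0.0449), and its mean was also lower in 18Q, at 9.491 against 9.601. The astrocyte list was 10.40 to 10.70 in 18Q and 10.33 to 10.54 in 79Q against 10.29 to 10.38. The hypothalamus list was 9.31 to 10.28 in 18Q and 9.60 to 10.10 in 79Q against 10.11 to 10.22, and none of its 11 genes passed. Its 4 lowest values in the AAV arrays were those of the 4 arrays with high thalamus markers. They were 9.31 in 18Q replicate 3 and 9.60 to 9.68 in 79Q replicates 6, 7 and 8. The same 4 arrays had the highest means of 7 oligodendrocyte markers, 11.43 to 11.72, against at most 11.39 in the other AAV arrays. All 7 measured pituitary markers were above zero in 18Q vs. WT, among them Prl at 3.133 (SE 1.06, adjusted p = 0.171), and the list was 7.05 to 8.35 in 18Q and up to 8.13 in 79Q against 6.67 to 7.12 in WT control arrays. Of 9 cortex and hippocampus markers, 8 were below zero with either fragment and none passed. That list was 8.39 to 8.54 in 79Q, below all WT control arrays (8.58 to 8.62), and 8.39 to 8.65 in 18Q. The part of these shifts in the differences of the glutamatergic genes was not tested.

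The second question was repeat length, 79Q vs. 18Q. Members lay on both sides of zero, 20 below and 15 above, with a median of -0.004 against -0.007 over all probe sets. None passed an adjusted p of 0.05, as was the case for 0.0% of all probe sets, and none had an unadjusted p under 0.05, against 4.24% of all probe sets (limma). Under centring of each array on its median the split was 13 below and 22 above, with a median of 0.005 over all probe sets. The intervals of the members reached a median of 0.114 to either side. This comparison is also the test of whether the effects of the 2 fragments against WT differed.

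In BACHD vs. WT at 2 months, 30 of 35 members lay below zero and 5 above, with a median of -0.061 against -0.034 over all probe sets. Of all probe sets 65.7% lay below zero. Centring each array on its median moved the split of the members to 18 below and 17 above, and the median over all probe sets to 0.015. No member passed the adjusted threshold, nor did any probe set (0.0%), and none had an unadjusted p under 0.05, where 4.09% of all probe sets did. At 10 months the split was 10 below and 25 above, with a median of 0.031 against 0.007 over all probe sets, of which 53.9% lay above zero. No member passed the adjusted threshold there either (0.0% of all probe sets), and Slc1a1 was the only member with an unadjusted p under 0.05, with 2.55% of all probe sets higher and 2.0% lower at that level. The term for a genotype effect that differs between the ages was above zero for 30 members and below for 5, and above zero for 64.6% of all probe sets. Its median was 0.1 over the members and 0.042 over all probe sets. Under centring the split was 21 above and 14 below, with a median of -0.017 over all probe sets. No member passed an adjusted p of 0.05 (0.0% of all probe sets) or an unadjusted p of 0.05 (2.62% of all probe sets).

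Of the vesicular transporters, Slc17a7 varied more between mice of a group than Slc17a6 in all 3 sets of arrays. The RefSeq windows before their annotated transcription start sites are shown because both paralogs fill vesicles with glutamate. A relation of the windows to the spread between mice was not tested. Both lie on the forward strand of mouse chromosome 7 in GRCm38.p6, that of Slc17a7 at chr7:45163671-45163920 and that of the first annotated start of Slc17a6 at chr7:51621580-51621829. Capitals mark GGGCGG, the GC box, searched on both strands, with overlapping matches joined.
Slc17a7: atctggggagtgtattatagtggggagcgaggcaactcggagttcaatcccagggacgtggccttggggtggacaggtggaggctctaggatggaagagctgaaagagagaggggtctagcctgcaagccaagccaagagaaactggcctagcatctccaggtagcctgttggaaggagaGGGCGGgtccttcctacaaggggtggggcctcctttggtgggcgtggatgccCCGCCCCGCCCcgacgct
Slc17a6: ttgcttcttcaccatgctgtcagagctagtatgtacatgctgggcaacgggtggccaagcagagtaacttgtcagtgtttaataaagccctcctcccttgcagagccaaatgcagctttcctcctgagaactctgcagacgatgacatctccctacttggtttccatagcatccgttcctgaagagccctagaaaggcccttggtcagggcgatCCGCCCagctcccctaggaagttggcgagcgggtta
The window of Slc17a7 held 3 matches with a GC content of 61.2%, and that of the first Slc17a6 start held 1 with 53.2%. The window of the other annotated Slc17a6 start, at chr7:51624387-51624636, held 0 with 41.2% and is not printed. Of 32851 windows of 250 bases in the table, 32.7% held at least 1 match, and a match is a description of the sequence alone.

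Slc17a7 had log2 values of 7.18, 6.98, 7.07, 7.34 and 7.22 in the WT control arrays. These lay below the medians of the AAV arrays over all probe sets, 7.38 to 7.46, in the dim part of the array. In 18Q the values of Slc17a7 were 7.87, 7.13, 8.14, 6.96 and 6.90, and in 79Q the lowest was 7.08, the median 7.19 and the highest 7.98. 2 of the 18Q arrays and 3 of the 79Q arrays stood above the others, and the remaining ones lay within the range of the controls or, for 2 arrays of 18Q, just below it. The difference from WT was 0.238 (SE 0.231) for 18Q and 0.249 (SE 0.209) for 79Q, with adjusted p values of 0.764 and 0.670 (limma). Without the arrays with a high thalamus list mean they were 0.053 for 18Q, which loses replicate 3 alone, and -0.016 for 79Q.

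At 2 months Slc17a7 had values of 10.17, 9.04, 9.92, 9.41, 8.33 and 7.36 in WT and of 7.88, 9.74, 8.90, 10.15, 7.10 and 7.70 in BACHD. High and low arrays occurred in both genotypes, and the groups overlapped over almost their whole range. The difference was -0.462 with a 95% interval from -1.703 to 0.778 (adjusted p = 0.945, limma), and leaving out each array in turn moved it between -0.799 (without WT replicate 7) and -0.168 (without BACHD replicate 5). At 10 months the values were 8.02, 7.15 and 7.87 in WT and 8.66, 8.09, 8.69, 7.32 and 7.77 in BACHD, again overlapping, with a difference of 0.426 and an interval from -0.364 to 1.217 (adjusted p = 0.997). There it moved between 0.161 (without WT replicate 2) and 0.623 (without BACHD replicate 4). The opposite signs at the 2 ages are not a tested difference: the age by genotype term was 0.889 (SE 0.822, adjusted p = 1.0).

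Slc17a6 had values of 11.22, 11.05, 11.13, 11.21 and 11.06 in WT control arrays and of 11.01, 11.09, 11.21, 11.10 and 10.91 in 18Q. In 79Q it ranged from 10.91 over a median of 11.11 to 11.21. The differences from WT, -0.073 (SE 0.0616) for 18Q and -0.031 (SE 0.0555) for 79Q, were within the spread of the controls. At 2 months it ran from 11.16 to 11.84 with a median of 11.35 in WT and from 11.19 to 11.59 with a median of 11.38 in BACHD, a difference of -0.029 (SE 0.110). At 10 months the values were 11.68, 11.41 and 11.36 in WT and 11.29, 11.49, 11.42, 11.42 and 11.72 in BACHD, a difference of -0.015 (SE 0.107). The signs at 2 and 10 months turned under other settings of the fit, to 0.025 and 0.033 with array weights, and carry no direction.

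**Figure D2:**
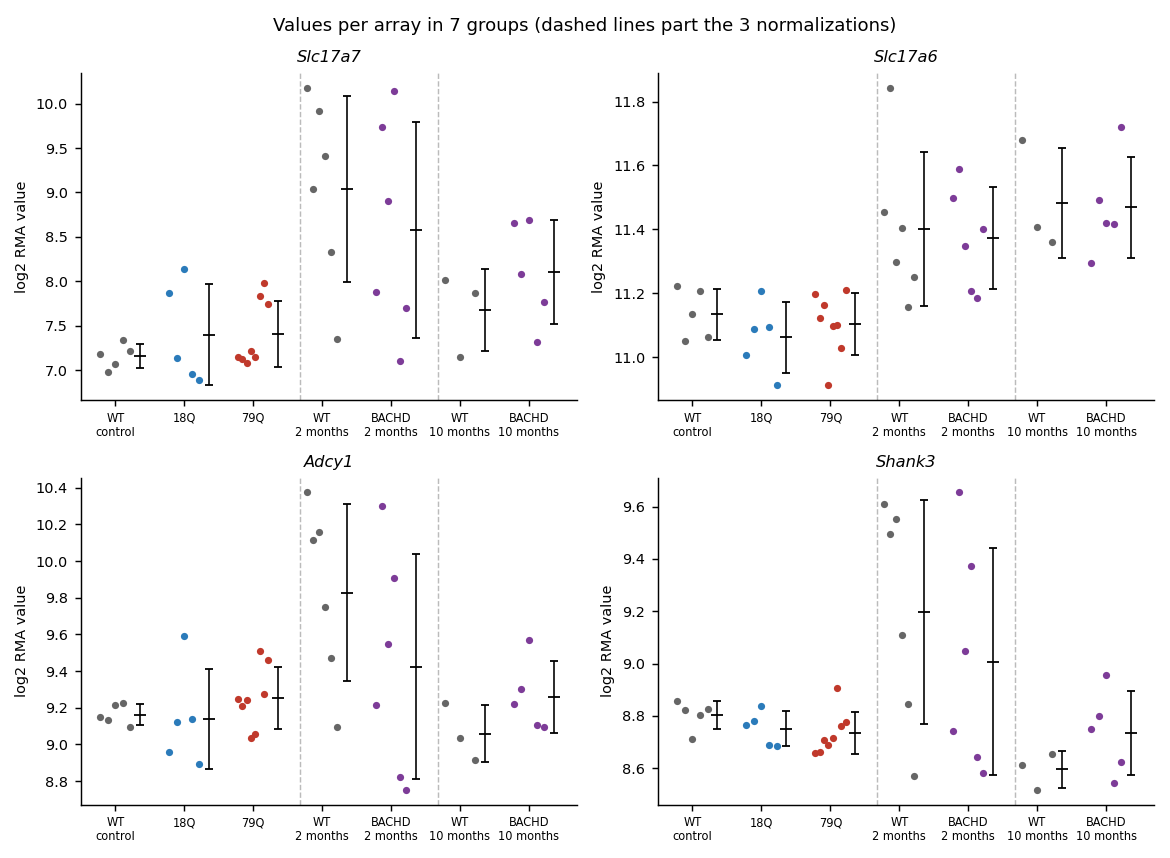
Log2 RMA values of Slc17a7, Slc17a6, Adcy1 and Shank3 in each of 38 arrays (points, one per mouse) in 7 groups, with the group mean and SD as a black bar. Dashed lines part the 3 normalizations, whose levels are not comparable. Slc17a7, Adcy1 and Shank3 spread widely at 2 months in both genotypes, and Slc17a7 covers 7.10 to 10.17 there.

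Of the uptake transporters, Slc1a3 and Slc1a1 had lower means in 79Q than in WT, whereas Slc1a2 did not. Slc1a3 encodes GLAST, an astrocytic transporter. Its values were 12.06, 12.10, 12.02, 12.01 and 11.98 in WT control arrays, 11.97, 12.05, 11.83, 11.87 and 12.06 in 18Q, and 11.69 (lowest), 11.86 (median) and 11.99 (highest) in 79Q. All 8 of the 79Q arrays lay below the control mean, and the ranges met only at their edges. The difference of -0.187 (SE 0.0545) in 79Q vs. WT had an adjusted p of 0.0941 (limma), and an exact two-sided permutation of the arrays gave p = 0.00544, unadjusted, where 0.000777 is the smallest possible. It was -0.107 between the fragments (adjusted p = 1.0) and -0.079 in 18Q vs. WT. With array weights in the fit Slc1a3 passed an adjusted p of 0.05 at -0.199, as did 3.14% of all probe sets.

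Slc1a1, which encodes the neuronal transporter EAAC1, had values of 10.48, 10.48, 10.37, 10.46 and 10.24 in WT control arrays and a lowest, median and highest value of 10.14, 10.23 and 10.35 in 79Q. The groups overlapped through WT control replicate 7, and the difference was -0.161 (SE 0.0522, adjusted p = 0.141, limma). At 10 months Slc1a1 was 10.73, 10.72 and 10.71 in WT and 10.86, 10.84, 10.78, 10.76 and 10.84 in BACHD. All BACHD arrays lay above all WT arrays there, as was the case for 1.93% of all probe sets, but the difference was 0.096 (SE 0.0391) with an adjusted p of 0.997. Its unadjusted p under 0.05 was lost in 9 of 15 alternatives: under centring, with the replicate number as a block, with both ages in 1 fit, and without any 1 of 6 of the 8 arrays (all but BACHD replicates 3 and 4). Slc1a2, which encodes the main astrocytic transporter GLT-1, differed by 0.010 in the 79Q group, and by 0.038 and 0.006 in BACHD mice of 2 and 10 months. Glul differed from WT by -0.084 (18Q) and -0.087 (79Q) at its brightest probe set and by -0.042 and 0.009 at its other one, so that the probe sets disagree in 79Q.

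AMPA receptors are tetramers of the subunits Gria1 to Gria4. Gria4 had values of 10.65, 10.70, 10.66, 10.65 and 10.68 in WT control arrays and of 10.60, 10.61, 10.56, 10.45 and 10.57 in 18Q. The groups did not overlap, which was so for 1.5% of all probe sets in this direction and 2.57% in the other. Its difference of -0.105 (SE 0.0445) had an adjusted p of 0.315 (limma), and the exact two-sided permutation p was 0.00794, the smallest that 5 against 5 arrays allow. In 79Q it lay at 10.43 (lowest), 10.57 (median) and 10.65 (highest), all below the control mean, with a difference of -0.109 (SE 0.0401, adjusted p = 0.201). Gria1 differed by -0.092 and -0.091, Gria2 by -0.041 and -0.050 and Gria3 by 0.053 and 0.018 in 18Q and 79Q vs. WT. In BACHD mice the 4 subunits ran from -0.128 (Gria2) to 0.017 (Gria1) at 2 months and from 0.027 (Gria2) to 0.104 (Gria3) at 10 months (3 of 4 were above zero at 2 months under centring), all with adjusted p values of 0.939 or higher.

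NMDA receptors combine the obligatory subunit of Grin1, which has no value here, with subunits such as Grin2a to Grin2d and Grin3a. All 5 measured subunits were below zero in 18Q vs. WT (median -0.040) and in 79Q vs. WT (median -0.099), also under centring of the arrays. Of all probe sets 55.0% and 57.8% were below zero, and centring lowered their medians to -0.043 and -0.037. Grin2c had values of 8.39, 8.44, 8.36, 8.46 and 8.40 in WT control arrays, 8.19, 8.25, 8.40, 8.03 and 8.40 in 18Q, and 8.17, 8.26 and 8.33 (lowest, median, highest) in 79Q. The 79Q arrays did not overlap with WT, as for 0.938% of all probe sets in this direction and 1.77% in the other, whereas 2 of the 18Q arrays reached the control values. For 79Q the difference from WT was -0.164 (SE 0.0545, limma adjusted p = 0.152), and for 18Q it was -0.154 (SE 0.0605) with an adjusted p of 0.268. Fitted on the arrays of 79Q and WT alone, Grin2c passed an adjusted p of 0.05, as did 2.42% of all probe sets.

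Grin2b, an NMDA subunit of early and extrasynaptic receptors, had the smallest spread of the members in the AAV arrays (SD within groups 0.043). It had values of 10.27, 10.25, 10.30, 10.36 and 10.28 in WT control arrays, 10.29, 10.24, 10.20, 10.28 and 10.28 in 18Q, and 10.13, 10.20 and 10.26 (lowest, median, highest) in 79Q. The difference of 79Q was -0.099 from WT (SE 0.0319, limma adjusted p = 0.139) and -0.064 from 18Q (SE 0.0319), the latter with an adjusted p of 1.0, and all 8 of the 79Q arrays lay below the mean of either group. Grin3a, whose subunit lowers calcium entry, was 10.24 to 10.32 in WT control arrays and 10.05 to 10.27 in 79Q, a difference of -0.120 (SE 0.0458, adjusted p = 0.224). Grin2a and Grin2d differed by -0.010 and -0.025 in 79Q vs. WT.

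At 2 months the 5 NMDA subunits lay between -0.205 (Grin2a) and -0.011 (Grin3a) in BACHD vs. WT. Centring left 3 of them below zero. Grin2a ran from 9.32 to 10.11 in WT and from 9.13 to 9.76 in BACHD, and Grin2b from 10.36 to 10.98 and from 10.19 to 10.90. At 10 months the differences ran from -0.017 (Grin3a) to 0.106 (Grin2b). The adjusted p values were 0.939 or higher at both ages.

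Kainate receptors are built from Grik1 to Grik5. All 5 were below zero in 18Q vs. WT, from -0.103 (Grik1) to -0.003 (Grik2), with a median of -0.068. Without 18Q replicate 3 and the other arrays with high thalamus markers 4 of 5 were, with a median of -0.015. In 79Q all 5 were below zero, from -0.160 (Grik1) to -0.012 (Grik2). Grik1 had values of 8.81, 8.88, 8.89, 8.84 and 8.99 in WT control arrays and 8.53, 8.72 and 8.90 (lowest, median, highest) in 79Q. 1 of the 8 arrays lay above the control mean, and the difference was -0.160 (SE 0.0651, adjusted p = 0.258, limma). Grik2 at 2 months ran from 10.66 over a median of 10.87 to 11.04 in WT and from 10.61 over 10.71 to 10.84 in BACHD. All 6 BACHD arrays lay below the WT mean, but the ranges overlapped and the difference was -0.137 (SE 0.0755, adjusted p = 0.939). Grik3 had the smallest p of the members for the age by genotype term, 0.212 (SE 0.114, adjusted p = 1.0). It was 10.10, 10.33 and 10.07 in WT and 10.47, 10.22, 10.30, 10.25 and 10.28 in BACHD at 10 months, a difference of 0.136 (SE 0.0792). The 5 kainate subunits together were all below zero at 2 months (3 of 5 under centring), and 3 of 5 were above zero at 10 months.

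The metabotropic receptors comprise the postsynaptic Grm5, coupled to phospholipase C, and Grm2, Grm3, Grm4, Grm7 and Grm8, which lower cyclic AMP. All 6 were below zero in 18Q vs. WT, from -0.117 (Grm5) to -0.001 (Grm2), and 4 of 6 in 79Q vs. WT, where Grm2 was at 0.211 with a within-group SD of 0.317. Grm5 had values of 11.32, 11.47, 11.30, 11.38 and 11.30 in WT control arrays and 11.36, 11.27, 11.06, 11.25 and 11.23 in 18Q, a difference of -0.117 (SE 0.0596, adjusted p = 0.440, limma). Grm4 showed the smallest p of the members at 2 months. It ran from 9.16 over a median of 9.585 to 10.00 in WT and from 8.93 over 9.32 to 9.50 in BACHD, with all 6 BACHD arrays below the WT mean and the ranges overlapping. The difference was -0.311 (SE 0.154, adjusted p = 0.939), and at 10 months it was 0.082. Grm8 at 2 months was 8.40 to 8.70 in WT and 8.03 to 8.52 in BACHD, a difference of -0.168 (SE 0.0886). All 6 metabotropic receptors were below zero at 2 months, 4 of 6 under centring. The age by genotype term of Grm4 was 0.393 (SE 0.223, adjusted p = 1.0).

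Of the scaffolds, Dlg4 encodes PSD-95, the core protein of the postsynaptic density, to which Shank and Homer proteins attach. Dlg4 had values of 11.91, 11.90, 11.97, 11.99 and 11.98 in WT control arrays, 11.82, 11.85, 11.74, 11.95 and 11.92 in 18Q, and 11.75, 11.79 and 11.96 (lowest, median, highest) in 79Q. 7 of the 8 arrays of 79Q lay below the control mean, and the difference was -0.126 (SE 0.0446, adjusted p = 0.181, limma). Homer3 went the other way. It had values of 7.95, 7.80, 7.90, 7.95 and 7.89 in WT control arrays and 7.84, 8.105 and 8.24 (lowest, median, highest) in 79Q, with 7 of 8 arrays above the control mean and a difference of 0.181 (SE 0.0617, adjusted p = 0.164). Without 79Q replicate 3, the array with the lowest value, Homer3 passed an adjusted p of 0.05 with a difference of 0.215, where 2.33% of all probe sets passed. Homer1 differed from WT by 0.074 (18Q) and 0.009 (79Q), and by -0.065 (SE 0.0409) between the fragments. The 3 probe sets of Shank2 differed by -0.087, -0.058 and -0.133 in 79Q vs. WT.

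In BACHD mice, 6 of the 7 scaffolds were below zero at 2 months (4 of 7 under centring) and 5 of 7 above zero at 10 months. Shank3 had values of 9.61, 9.50, 9.55, 9.11, 8.84 and 8.57 in WT at 2 months and of 8.74, 9.65, 9.05, 9.37, 8.64 and 8.58 in BACHD. Both genotypes spanned nearly the same range, and the difference was -0.190 (SE 0.221, adjusted p = 0.941, limma). At 10 months Shank3 was 8.61, 8.52 and 8.65 in WT and 8.75, 8.80, 8.96, 8.54 and 8.62 in BACHD, a difference of 0.139 (SE 0.0921). Shank2 differed by -0.178 (SE 0.107) at 2 months and by 0.069 (SE 0.0697) at 10 months, and its age by genotype term was 0.248 (SE 0.150, adjusted p = 1.0). These are values of its brightest probe set. The other 2 gave -0.064 and -0.095 at 2 months, -0.013 and -0.034 at 10 months, where the sign turned, and 0.051 and 0.062 for the age term. Plcb1, a phospholipase C that acts downstream of Grm5, differed by -0.126 and 0.022 at these ages, and by -0.087 in 18Q and -0.096 in 79Q against WT.

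**Figure D3:**
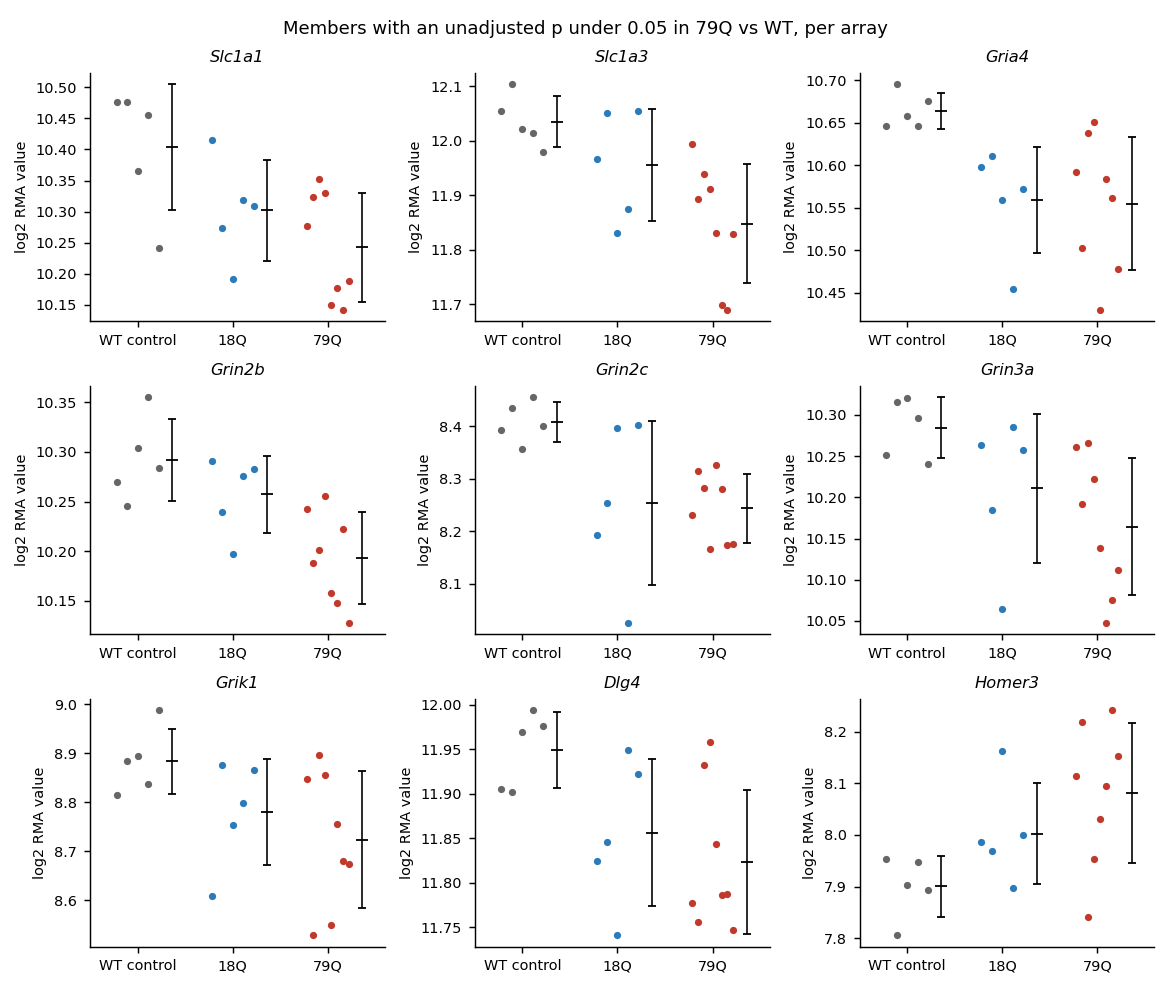
Log2 RMA values per array of the 9 members with an unadjusted p under 0.05 in 79Q vs. WT, for WT control (n = 5), 18Q (n = 5) and 79Q (n = 8), with the group mean and SD as a black bar. Each y axis has its own range and does not start at 0. Grin2c is the one member whose 79Q and WT control arrays do not overlap, and Homer3 the one with a higher mean in 79Q than in WT.

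The members differed widely in the spread between mice of 1 group. In the 2 months arrays the SD within groups was 1.134 for Slc17a7, 0.552 for Adcy1 (the calcium-stimulated adenylyl cyclase), 0.430 for Shank3, 0.402 for Grm2 and 0.294 for Grm4. The median was 0.148 over the members and 0.152 over all probe sets, and 0.0547% of all probe sets had a larger SD than Slc17a7. In the AAV arrays the SD of Slc17a7 was 0.395, which 3.04% of all probe sets exceeded, and at 10 months it was 0.550, which 0.929% exceeded. Slc17a6 had SDs of 0.204 at 2 months, 0.097 in the AAV arrays and 0.162 at 10 months. The steadiest members were Slc1a2 at 2 months, with an SD of 0.052, and Dlg4 at 10 months, with 0.019.

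**Figure D4:**
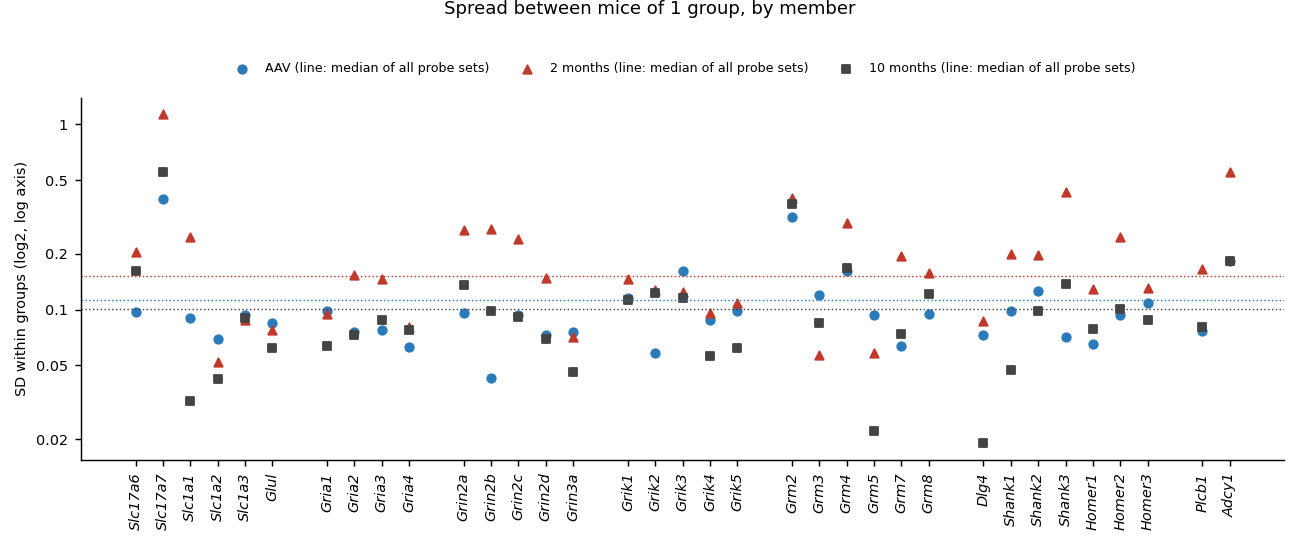
SD between mice within groups (y axis, log2 units on a log axis) of the 35 members (x axis, in blocks by role) in the AAV, 2 months and 10 months arrays. Dotted lines give the medians over all probe sets, 0.113, 0.152 and 0.101. Slc17a7 is the highest point in each of the 3 sets, and at 2 months Adcy1 and Shank3 follow it.

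The arrays with high Slc17a7 at 2 months were those with a high mean of the thalamus list, whose 9 genes were all measured. The cortex and hippocampus list was 8.49 to 8.62 in WT and 8.48 to 8.77 in BACHD mice of that age. It was 8.50 in WT replicate 1 and 8.51 in BACHD replicate 5, the arrays with the highest and lowest Slc17a7. It was highest in BACHD replicate 4, where Slc17a7 was 10.15. The mean of the thalamus list left a gap between 8.44 and 9.33. In the 5 arrays below the gap, BACHD replicates 1, 5 and 7 and WT replicates 5 and 7, Slc17a7 lay at 7.10 to 8.33, and in the 7 arrays above it at 8.90 to 10.17. Adcy1 lay at 8.75 to 9.47 and at 9.55 to 10.375, Shank3 at 8.57 to 8.84 and at 9.05 to 9.65, and Grm4 at 8.93 to 9.25 and at 9.41 to 10.00. These 4 of 35 members did not overlap between the 2 sets of arrays, against 0.952% of all probe sets, whereas the other 31 did, among them Slc17a6 with 11.16 to 11.50 and 11.21 to 11.84. No member was lower in every array above the gap. The arrays were parted by their thalamus markers and not by a label, so these ranges describe the arrays and no test was made.

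At 10 months the thalamus list mean was 8.21 to 9.01 in WT and 8.53 to 9.59 in BACHD. The array with the highest list mean, BACHD replicate 3, also had the highest Slc17a7 (8.69), Adcy1 (9.57) and Shank3 (8.96). WT replicate 3 had the highest list mean of the WT arrays (9.01) but the lowest Adcy1 of that age (8.91). Its Slc17a7 (7.87) lay below that of WT replicate 1 (8.02, list mean 8.72), whereas its Shank3 (8.65) was the highest of the WT arrays. Among the AAV arrays, 18Q replicate 3 had the highest list mean (8.92), and its Slc17a7 (8.14) and Adcy1 (9.59) were the highest of that set. 18Q replicate 1 had high Slc17a7 (7.87) with a list mean of 8.37, below the highest WT control (8.55). All 9 thalamus markers were below zero in BACHD vs. WT at 2 months (median -0.315) and above zero at 10 months (median 0.367), none past the adjusted threshold. Adcy1 differed by -0.402 at 2 months, with 8.75 to 10.30 in BACHD against 9.09 to 10.375 in WT. At 10 months it was 9.23, 9.04 and 8.91 in WT and 9.22, 9.30, 9.57, 9.10 and 9.09 in BACHD, a difference of 0.20 (SE 0.119, adjusted p = 0.997, limma). The part of thalamic RNA in the genotype differences was not tested.

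**Figure D5:**
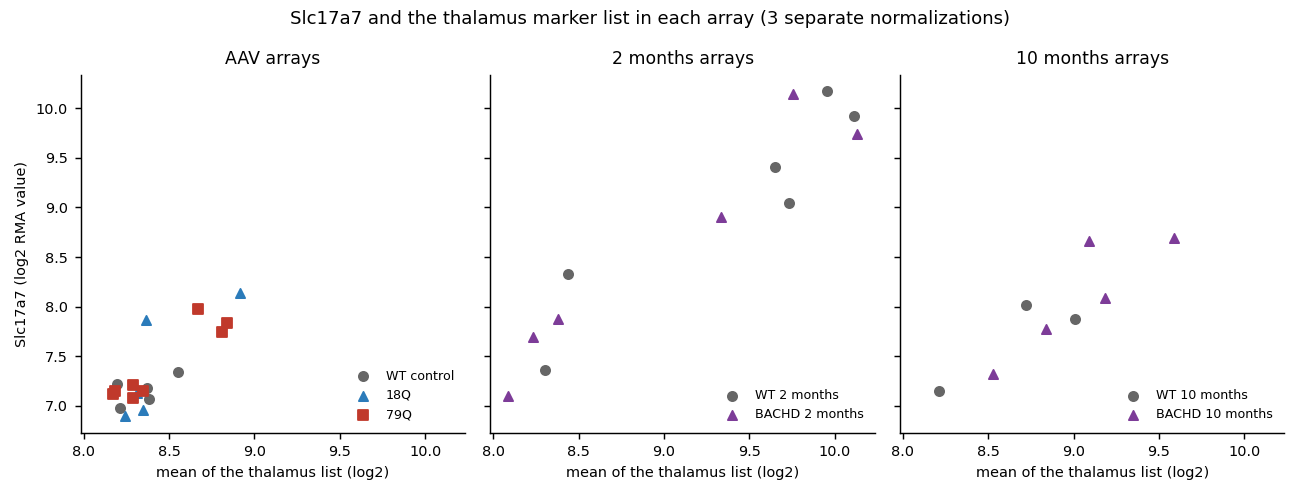
Slc17a7 (y axis, log2 RMA value) against the mean of 9 thalamus markers (x axis, log2) in each array, in 3 panels for the separately normalized sets, with a symbol per group. At 2 months the points fall on either side of a gap between 8.44 and 9.33 in the list mean, with BACHD and WT mice on both sides.

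Of 80 other genes of the pathway, 69 were measured. In 18Q vs. WT, 52 of the 69 were below zero with a median of -0.054, and 1 passed in each direction, together 2.9% of the list against 2.11% of all probe sets. Pick1, which encodes a protein that binds AMPA receptor tails during their internalization, fell by 0.20 (SE 0.0499, adjusted p = 0.0432, limma) with no overlap between groups. The groups did not overlap for 5 lower and 2 higher genes of the 69, and for 1.5% and 2.57% of all probe sets. Slc38a2, a neutral amino acid transporter that carries glutamine, was 0.282 higher (SE 0.0715, adjusted p = 0.0476). In 79Q vs. WT, 48 were below zero with a median of -0.055, and 2 passed, both lower, 2.9% against 2.07%. These shares at the adjusted threshold are near the background. At an unadjusted p under 0.05 (limma), 12 of the 69 were lower and 8 higher in 18Q vs. WT, 29.0% of the list. In 79Q vs. WT 19 were lower and 5 higher, 34.8% of the list. Over all probe sets the shares were 12.6% and 14.0%, and among the brighter ones, fitted alone, 18.0% and 20.5%. Prkacb, a catalytic subunit of protein kinase A, fell by 0.142 in 79Q vs. WT (SE 0.0306, adjusted p = 0.0172) with no overlap between groups. The groups did not overlap there for 4 lower and 1 higher gene of the 69, and for 0.938% and 1.77% of all probe sets. Ppp3r1, the regulatory subunit of calcineurin, fell by 0.151 in 79Q vs. WT (SE 0.0378, adjusted p = 0.0448).

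Pick1 was at -0.077 (adjusted p = 0.485) in 79Q vs. WT and at 0.123 (SE 0.0450, adjusted p = 1.0) between the fragments. Prkacb was at -0.125 (adjusted p = 0.0697) in 18Q vs. WT and differed by -0.018 between the fragments. Of 14 auxiliary subunits of AMPA and kainate receptors, 13 were below zero in 18Q vs. WT and 13 in 79Q vs. WT, and none passed. Of all probe sets 55.0% and 57.8% were below zero in these comparisons. In 79Q vs. 18Q and in BACHD mice none of the 69 passed (limma). At an unadjusted p under 0.05 4 differed between the fragments, 3 between BACHD and WT mice of 2 months and 3 between those of 10 months. These are 5.8%, 4.35% and 4.35% of the list, near the 4.24%, 4.09% and 4.55% of all probe sets. The smallest p values belonged to Kcnj3 (0.148) and Pick1 in 79Q vs. 18Q, to Dlg3 (-0.190) and Cacng3 (0.203) at 2 months and to Trpc1 (0.188) and Plcb2 (0.196) at 10 months, as log2 differences. For the age by genotype term none passed either, 1 had an unadjusted p under 0.05 (1.45% against 2.62% of all probe sets), and the smallest p values were those of Dlg3 (0.202) and Cacng3 (-0.229).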

How the data were processed

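The authors imported raw Affymetrix Mouse Gene ST 1.0 files with ReadAffy and applied RMA, which corrects background, equalizes the distributions of the arrays by quantiles and summarizes probes by median polish (R 4.1.1, affy 1.70.0), and the deposited values are log2 intensities of 34760 probe sets, used as deposited. Identical values between arrays (16 to 109 in pairs of the same set, 0 to 1 across sets) showed 3 separate normalizations. Symbols came from the platform table, with 21640 probe sets of 1 symbol, 1321 of several and 11799 of none. Groups were taken from the sample labels.

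Differences were fitted with limma 3.58.1 in R 4.3.3 (lmFit, contrasts.fit, eBayes) on all probe sets, with 1 mean per group, once for the 18 AAV arrays, once for each BACHD age and once over both ages for the age by genotype term. P values are two-sided and were adjusted within a comparison across all probe sets (Benjamini-Hochberg). The fit was tested on simulated data. Named members were also compared by exact permutation of the arrays. Members given with values are the 3 with the smallest p in each comparison and the vesicular transporters; other genes of the pathway were named if they passed, otherwise the 2 with the smallest p. The other members with an unadjusted p under 0.05, and Adcy1 and Shank3 at 2 months, were named after their values were seen, as were Grin2a, Grm2, Plcb1 and the members given by differences alone. Members, gene lists and marker lists were chosen with earlier results of these data known. Alternatives were centring, a filter on dim probe sets, another variance model, array weights, other probe sets, a replicate block, other arrays in the fit and leaving out each array. After seeing the data, a fit without the AAV arrays with high thalamus markers was added. Protein sequences were not used here.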

Additional observations from a re-analysis of the deposited data

Results flagged for a closer look

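Of 210 combinations of a member and a group of 4 to 10 arrays, 8 held an array that stood apart from the rest of its group by Dixon's criterion at 95%, where chance gives about 10.5. They were Slc1a2 in BACHD 10 months replicate 1 (12.35, nearest other array 12.32), Glul in BACHD 10 months replicate 3 (12.53, nearest 12.67), Grin2d in the same array (9.27, nearest 9.12), Gria3 in BACHD 2 months replicate 4 (10.87, nearest 10.58) and Grm8 in BACHD 2 months replicate 2 (8.03, nearest 8.37). In the AAV arrays they were Grm4 in 18Q replicate 3 (9.41, nearest 9.01), Grm7 in 79Q replicate 7 (9.965, nearest 10.09) and Shank3 in 79Q replicate 6 (8.91, nearest 8.78). The 3 AAV arrays are among the 4 whose thalamus list mean exceeded that of every WT control array. What sets these arrays apart was not tested.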

How the results depend on the processing

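The count of 0 members past an adjusted p of 0.05 held under all alternatives in 18Q vs. WT, 79Q vs. 18Q, at both BACHD ages and for the age by genotype term. In 79Q vs. WT it became 1 with array weights (Slc1a3), with only the 2 groups compared in the fit (Grin2c) and without 79Q replicate 3 (Homer3), a range of 0 to 1 when leaving out each array. In these 3 fits 3.14%, 2.42% and 2.33% of all probe sets passed, against 2.07% in the main fit. In 18Q vs. WT the count at an unadjusted p under 0.05 was 5 under centring, where the share of all probe sets that were lower went from 6.5% to 12.1%. It was 1 with only the 2 groups compared (11.7% of all probe sets against 12.6%). Leaving out each array gave 1 to 5, with 5 without 18Q replicate 3 (11.3%). In 79Q vs. WT it was 4 without the arrays with high thalamus markers (lower probe sets 5.24% against 8.31%), and 9 to 13 when leaving out each array. In 79Q vs. 18Q it was 1 with the filter on dim probe sets (5.04% of all probe sets against 4.24%), 1 with trend and robust variance (4.3%) and 2 with array weights (5.76%). Leaving out each array gave 0 to 5 there, with 5 without 18Q replicate 3 (5.68%). At 2 months it was 1 with the replicate block (4.61% of all probe sets against 4.09%) and 1 with both ages in the fit (7.05%). Leaving out each array gave 0 to 3, with 3 without BACHD replicate 2 (5.28%). At 10 months it was 0 under centring, 0 with both ages in the fit (1.83% of all probe sets against 4.55%) and 2 with the replicate block (4.06%). Leaving out each array gave 0 to 1, with 0 without BACHD replicate 1 or 2 or WT replicate 3. The 1 was another member than Slc1a1 without BACHD replicate 5 or WT replicate 1 or 2. For the age term it was 1 with the replicate block (3.12% of all probe sets against 2.62%). Leaving out each array gave 0 to 2, with 2 without the 2 months arrays BACHD replicate 2 (3.6%), WT replicate 4 (4.5%) or WT replicate 5 (2.92%).

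Replicate numbers did not pair the arrays, since the deviations of same-numbered arrays correlated between -0.311 and 0.28. With the number as a block, Slc17a7 at 10 months was 0.800 against 0.426. Signs turned for Slc17a7 in 79Q vs. WT (-0.016 without the arrays with high thalamus markers) and in 79Q vs. 18Q (-0.095 with the block, -0.068 without those arrays, -0.114 to 0.197 when leaving out each array, and 0.012 to 0.140 in the other settings, the reported 0.012 included). They turned for Slc17a6 at 2 months (0.020 under centring, 0.025 with array weights, -0.078 to 0.059 when leaving out each array), at 10 months (0.033 with array weights, -0.078 to 0.084) and for the age term (-0.044 under centring, -0.052 with the block, -0.074 to 0.113). Of 719 values of 36 single results under the alternatives, 640 kept their direction and side of an unadjusted p of 0.05, 25 lost it, 29 gained it and 25 turned sign. The causes were not tested.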
